A study of Mus musculus with 12 samples.

Results

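The genes described are 10 epithelial keratins, chosen by their gene symbols: Krt7, Krt8, Krt18, Krt19, Krt20 and Krt23 of simple epithelia and Krt5, Krt14, Krt17 and Krt80 of stratified epithelia. They are 10 of the 57010 genes in each deposited table and 10 of its 54 keratin genes by symbol. Expression was measured by RNA sequencing in ID8 and 28-2 cells, both mouse lines of ovarian cancer, in culture. ID8EV and 28-2EV cells carried an empty lentiviral vector with EGFP, mCherry and a puromycin resistance gene, and were kept in 30 µg/ml puromycin. ID8-200f and 28-2-200f cells carried a pair of lentiviral vectors, each with a miR-200 cluster under a CMV promoter. The vector for the miR-200c/141 cluster also held mCherry and a hygromycin resistance gene. The vector for the cluster of miR-200b, miR-200a and miR-429 also held GFP and a puromycin resistance gene. The medium held 40 µg/ml puromycin with 50 µg/ml hygromycin for ID8-200f cells and 60 µg/ml puromycin with 1000 µg/ml hygromycin for 28-2-200f cells. The drugs therefore differed with the vectors in both lines, and the effects of drug and vector cannot be told apart. There were 3 libraries in each of the 4 groups, with total counts of 16390953 to 23063875. The study calls them biological replicates. The labels do not say whether they came from separate infections or cultures, so p-values measure the spread between these libraries.

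Keratins are the intermediate filament proteins of epithelial cells. A type I keratin pairs with a type II keratin, and only the pair builds a filament. Krt8 (type II) and Krt18 (type I) are the common pair of simple epithelia, Krt7 (type II) and Krt19 (type I) are added in ducts and many glandular linings, and Krt20 (type I) marks gut epithelium and urothelium. Krt5 (type II) pairs with Krt14 (type I) in the basal layer of stratified epithelia, Krt17 (type I) and Krt6a (type II) appear in skin appendages and in wounded or stressed epidermis, and Krt80 (type II) is found in differentiating epithelial cells. In human ovarian cancers, Krt7 without Krt20 is a common staining pattern. Mesothelium and the ovarian surface epithelium also contain the simple keratins.

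The miR-200 family has 5 members, and the vectors carried all of them. In the paper's TaqMan assays, miR-141 and miR-429 were not significantly raised in ID8 cells with both clusters, whereas the other family members were. In 28-2 cells with both clusters, all 5 members were significantly raised. The paper reports considerably lower levels of miR-141 and miR-429 than of the other members in both lines. The mature sequences below are from RefSeq (build GRCm38.p6), with the seed, bases 2 to 8 from the 5′ end, in capitals. The seed is marked because it decides which transcripts a miRNA can pair with. The 5 miRNAs fall into 2 seed groups, miR-141 with miR-200a and miR-200b with miR-200c and miR-429, which differ at a single base of the seed.
mmu-miR-141-3p: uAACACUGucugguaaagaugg
mmu-miR-200a-3p: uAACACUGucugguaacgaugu
mmu-miR-200b-3p: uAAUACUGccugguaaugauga
mmu-miR-200c-3p: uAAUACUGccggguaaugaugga
mmu-miR-429-3p: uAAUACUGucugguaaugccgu

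The longest annotated 3′UTR of all 10 keratins (GENCODE mouse release M21) was searched for the reverse complement of either seed. A match to the miR-141/200a seed (CAGTGTT) was found in Krt7 and a match to the seed of miR-200b, miR-200c and miR-429 (CAGTATT) in Krt80, once in each, and no match was found in the other 8. The 3′UTRs of Krt7 and Krt80 are both annotated with 2648 bases, against a median of 232.5 bases over the 10 keratins and 960.5 bases over 21028 genes. Among those 21028 genes 17.2% held CAGTGTT and 13.3% held CAGTATT. Both windows are shown with the match in capitals, since these are the only keratins of the list with a match. The match starts at base 1948 of the Krt7 3′UTR and at base 688 of the Krt80 3′UTR. The shares above are over 3′UTRs of all lengths, and whether either match acts on its transcript was not tested.
Krt7 3′UTR: caagagaccaCAGTGTTtagctgtgta
Krt80 3′UTR: agacacctgaCAGTATTgggggacgaa

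RefSeq promoter sequences (build GRCm38.p6, 250 bases before to 50 bases after the start of the gene) matched 7 of the 10 keratins. Krt17, Krt19 and Krt80 had no entry. The promoters of Krt7, Krt8, Krt18 and Krt14 are shown because these are the keratins with an entry that passed the filter on low counts. Capitals mark an E-box (CAGGTG), an AP-1 motif (TGANTCA), a GC box (GGGCGG) or a TATA box (TATAAA), each searched on both strands.
Krt7 promoter, chr15:101412153-101412452, plus strand: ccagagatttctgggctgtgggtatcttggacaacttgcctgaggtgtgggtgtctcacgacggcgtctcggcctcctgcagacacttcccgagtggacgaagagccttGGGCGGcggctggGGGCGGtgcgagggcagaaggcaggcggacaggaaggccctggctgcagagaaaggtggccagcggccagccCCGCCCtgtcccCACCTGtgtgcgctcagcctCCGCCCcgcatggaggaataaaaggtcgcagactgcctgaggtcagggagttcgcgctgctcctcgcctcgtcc
Krt8 promoter, chr15:102004293-102004592, minus strand: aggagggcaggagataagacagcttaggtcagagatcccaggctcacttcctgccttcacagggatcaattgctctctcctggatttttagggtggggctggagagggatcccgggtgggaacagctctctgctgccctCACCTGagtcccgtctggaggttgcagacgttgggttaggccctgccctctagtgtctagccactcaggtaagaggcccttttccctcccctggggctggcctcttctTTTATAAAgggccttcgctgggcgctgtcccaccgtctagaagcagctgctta
Krt18 promoter, chr15:102027966-102028265, plus strand: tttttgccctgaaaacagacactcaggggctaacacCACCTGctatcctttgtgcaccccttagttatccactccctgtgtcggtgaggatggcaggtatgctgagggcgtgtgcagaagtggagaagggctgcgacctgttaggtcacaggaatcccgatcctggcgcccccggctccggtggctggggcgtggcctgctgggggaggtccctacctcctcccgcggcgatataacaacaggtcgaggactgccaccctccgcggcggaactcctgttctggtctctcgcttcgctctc
Krt14 promoter, chr11:100205981-100206280, minus strand: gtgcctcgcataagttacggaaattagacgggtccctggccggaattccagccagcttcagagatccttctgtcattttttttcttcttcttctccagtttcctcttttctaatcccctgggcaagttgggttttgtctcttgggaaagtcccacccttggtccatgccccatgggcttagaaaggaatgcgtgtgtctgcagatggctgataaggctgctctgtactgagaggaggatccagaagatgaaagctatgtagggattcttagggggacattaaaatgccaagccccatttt
The Krt7 promoter had 4 GC boxes and 1 E-box and a GC content of 66.3%, against a median of 52.7% over all promoters. The Krt8 promoter had 1 E-box and a TATA box read on both strands as overlapping letters, the Krt18 promoter had 1 E-box, and the Krt14 promoter had none of the 4 motifs. Of 27025 mouse promoters of this length, 20% held the E-box, 7.93% the AP-1 motif, 35.9% the GC box and 14.2% the TATA box. No match of the AP-1 motif was found in any of the 7 keratin promoters. Such matches describe letters only.

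Of the transcripts of the 10 keratins, Krt8, Krt18 and Krt19 made up most in every group, and Krt20, Krt5 and Krt17 were close to absent. Levels of different genes were compared as deposited TPM values (transcript abundance scaled to the same sum in each library), which are per gene length. In ID8EV cells Krt19 had 3274 ± 121 TPM, Krt8 2023 ± 114 TPM and Krt18 1580 ± 82.2 TPM (SD, n = 3), and these ranges did not overlap. In 28-2EV cells the same 3 genes had 2051 ± 195, 2088 ± 204 and 2040 ± 370 TPM, and they did not differ beyond their spread. Among all genes of a library, ranked by TPM, Krt19 stood at place 8 to 38, Krt8 at place 18 to 40 and Krt18 at place 14 to 57. Together the 3 genes held 99.6% of the TPM of the 10 keratins in ID8EV, 98.5% in ID8-200f, 99.5% in 28-2EV and 95.5% in 28-2-200f cells (means of 3 libraries). The 28-2-200f libraries ranged from 90.1 to 98.5%, lowest in replicate 3. All 10 keratins together took 0.690 ± 0.0310% of the TPM of ID8EV libraries, 0.858 ± 0.0271% of ID8-200f, 0.621 ± 0.0502% of 28-2EV and 1.12 ± 0.136% of 28-2-200f libraries. The share was higher in every 200f library than in every EV library of the same line.

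Below the 3 abundant genes, the order of the keratins differed between the groups. Krt80 followed in ID8EV (19.1 ± 2.44 TPM) and 28-2EV (28.4 ± 19.4 TPM), ahead of Krt14 (4.50 ± 2.24 and 3.83 ± 2.61 TPM) and Krt7 (1.15 ± 0.123 and 0.539 ± 0.364 TPM). In ID8-200f cells Krt80 (55.6 ± 8.36 TPM) and Krt7 (51.7 ± 1.08 TPM) overlapped, with Krt14 below them (21.2 ± 1.78 TPM). In 28-2-200f cells Krt7 ranged from 92.1 to 578 TPM, Krt14 from 21.1 to 560 TPM and Krt80 from 51.4 to 123 TPM, so that these ranges overlapped. By TPM rank among all genes, Krt7 moved from places 13358 to 14007 in ID8EV to places 3821 to 3993 in ID8-200f, and from places 13811 to 17452 in 28-2EV to places 214 to 2244 in 28-2-200f.

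**Figure D1:**
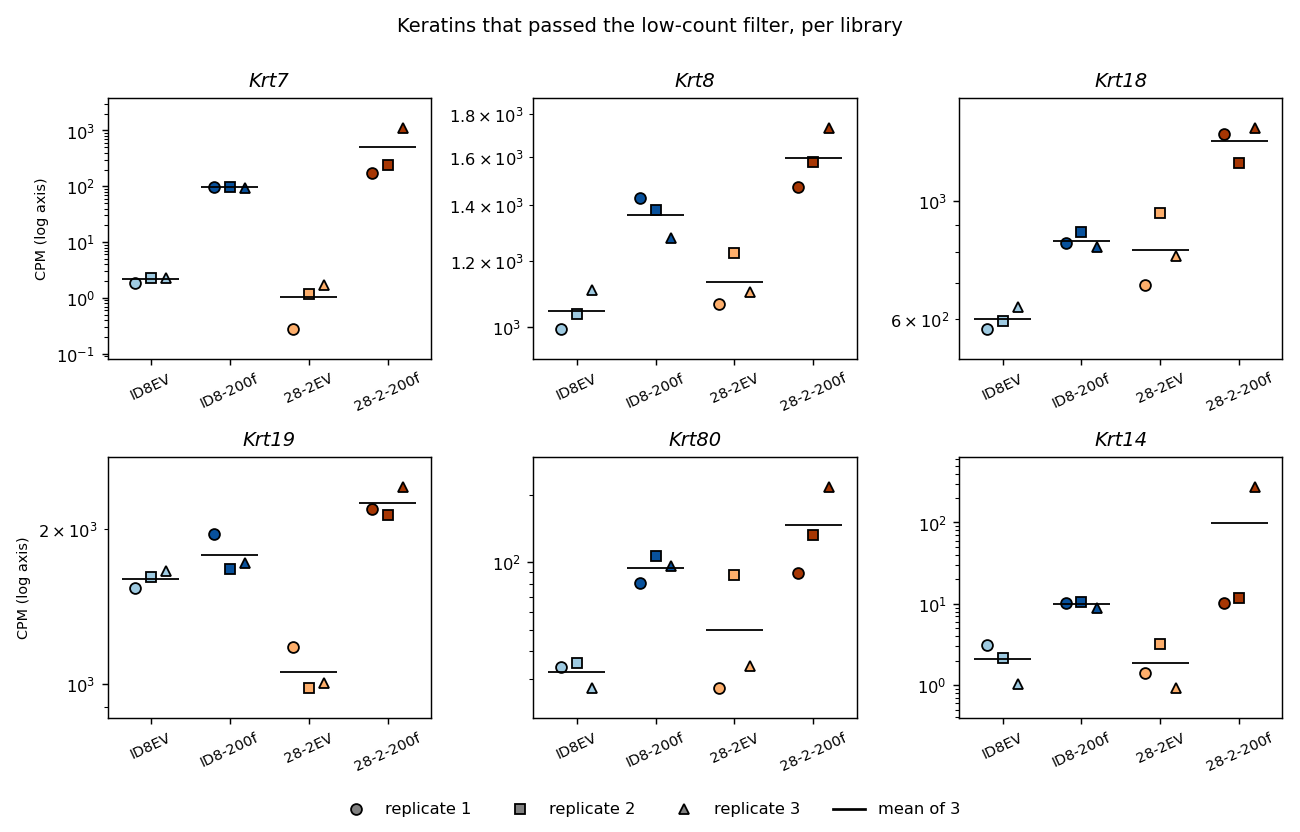
Deposited CPM of the 6 keratins that passed the low-count filter, 1 panel a gene on a log axis of its own, with a symbol for each of 3 replicates and a line at the group mean. All 3 200f values lie above all 3 EV values of the same line in each panel, and 28-2-200f replicate 3 lies far above its group in Krt7 (1118 CPM) and Krt14 (270.2 CPM).

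The comparison of each 200f line with its EV line asked which genes changed with both miR-200 clusters. It was tested with edgeR's quasi-likelihood test, fitted for each line alone, with p-values adjusted over all genes that passed a filter on low counts. In ID8 cells 6 of the 10 keratins passed that filter, and 5 of these 6 were higher in ID8-200f at an adjusted p under 0.05, against 17% of the 13280 genes tested. The study itself used a stricter cut-off, a log2 fold change above 1 in either direction at an FDR below 0.01. By it, 3 of 6 keratins were higher (Krt7, Krt14 and Krt80), against 1.69% of all genes. In all 6 the ID8-200f values lay above the ID8EV values without overlap, as for 22.9% of all genes. In 28-2 cells 2 of the 6 keratins were higher at an adjusted p under 0.05, Krt7 and Krt19, against 2.26% of 12679 genes. At the stricter cut-off 1 of 6, Krt7, was higher, against 0.513% of all genes, or 65 genes, in this edgeR fit. The study itself reports several times more upregulated genes for this line at the same cut-off. The count and share given here are therefore not those of its own analysis, and the reason for the gap was not tested. Before adjustment all 6 had a p under 0.05 in 28-2. All 6 were again higher without overlap, against 12.2% of all genes. The median log2 fold change of the 6 keratins was 1.05 in ID8 and 1.36 in 28-2 cells, and over all genes tested it was -0.00 and -0.01. Of the 6 keratins tested 0 were lower in either line, against 19% of all genes in ID8 and 2.18% in 28-2. In 28-2 the minimum of the filter, 0.573 CPM, was reached by all libraries for 5 of the 6 keratins, and for Krt7 by all 28-2-200f but only 2 of 3 28-2EV libraries. Krt7 thus entered the 28-2 test through the group where it was high, and its call there is no separate support. In these bulk samples, more keratin RNA per cell cannot be told apart from more cells with keratin RNA.

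Krt7, the type II keratin of ducts and glands, had the largest change of the list in both lines. Its deposited CPM (counts scaled to the library total) were 1.87, 2.28 and 2.30 in ID8EV and 98.3, 98.6 and 93.4 in ID8-200f. In 28-2EV they were 0.282, 1.17 and 1.71, from 5, 21 and 28 counts, and in 28-2-200f 177, 244 and 1118. Thus Krt7 was low in both EV lines, with 131 counts over ID8EV and 54 over 28-2EV, and high in all 6 200f libraries, and 28-2-200f replicate 3 stood far above its group. The log2 fold change was 5.51 in ID8 (SE 0.122, edgeR adjusted p = 4.05e-12) and 9.0 in 28-2 (SE 1.08, edgeR adjusted p = 0.00936). Without 28-2-200f replicate 3 the latter was 7.66 (edgeR adjusted p = 0.00723), and it lay between 7.66 and 9.51 with each library left out in turn. As ratios of mean CPM, Krt7 was 45.0-fold higher in ID8-200f, 488-fold higher in 28-2-200f and 200.1-fold higher there without replicate 3. Krt7 made 0.0564% of the summed type II TPM in ID8EV and 1.90% in ID8-200f, 0.0252% in 28-2EV and 7.31% in 28-2-200f. The 28-2-200f libraries held 3.17, 4.03 and 14.7%, so that replicate 3 doubled that mean. Krt8 therefore remained the main type II transcript in all 12 libraries.

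Krt8, the general type II keratin of simple epithelia, had 996, 1036 and 1106 CPM in ID8EV and 1426, 1380 and 1277 CPM in ID8-200f. The groups did not overlap, and the log2 fold change was 0.41 (SE 0.0891, edgeR adjusted p = 0.00306). In 28-2EV Krt8 had 1065, 1226 and 1103 CPM and in 28-2-200f 1472, 1576 and 1732 CPM. These groups did not overlap either, with a log2 fold change of 0.53 (SE 0.180), but the test was not passed (edgeR adjusted p = 0.158).

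Krt18, the type I partner of Krt8, had 574, 593 and 632 CPM in ID8EV and 833, 873 and 819 CPM in ID8-200f, a log2 fold change of 0.52 (SE 0.0852, edgeR adjusted p = 3.95e-04). In 28-2EV its CPM were 694, 949 and 787 and in 28-2-200f 1338, 1183 and 1376. The highest 28-2EV value, of replicate 2, lay below all 28-2-200f values. The log2 fold change was 0.71 (SE 0.194, edgeR adjusted p = 0.0901), and without 28-2EV replicate 2 it was 0.87 (edgeR adjusted p = 0.0286). The other 5 fits with 1 library left out did not pass. The ratio of Krt8 to Krt18 in TPM was 1.28 ± 0.00626 in ID8EV, 1.19 ± 0.0606 in ID8-200f, 1.03 ± 0.0891 in 28-2EV and 0.903 ± 0.0871 in 28-2-200f. The ratios of ID8EV and ID8-200f did not overlap. Those of 28-2EV and 28-2-200f did.

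Krt19, a type I keratin that lacks the usual tail domain, changed in 28-2 cells. It had 1536, 1618 and 1658 CPM in ID8EV and 1959, 1676 and 1716 CPM in ID8-200f, a log2 fold change of 0.18 (SE 0.0901, edgeR adjusted p = 0.136). In 28-2EV the CPM were 1180, 981 and 1003 and in 28-2-200f 2193, 2136 and 2414. All 28-2EV values were under all 28-2-200f values, and the log2 fold change was 1.13 (SE 0.173, edgeR adjusted p = 0.0165). The call was lost, at a log2 fold change of 1.05 to 1.21, without 28-2EV replicate 1 (edgeR adjusted p = 0.0570), 28-2EV replicate 3 (0.0641), 28-2-200f replicate 2 (0.0808) or 28-2-200f replicate 3 (0.0624). Of the 6 keratins only Krt19 passed the test of a difference between the lines, with a difference of 0.96 on the log2 scale (28-2 minus ID8, SE 0.168, edgeR adjusted p = 0.00869). This test, an interaction over all 12 libraries, called 2.26% of 13620 genes as changed more upwards in 28-2 cells. Krt7 differed by 3.50 (SE 1.02, edgeR adjusted p = 0.0988) and Krt14 by 3.49 (SE 1.60, 0.314), neither past the test. Without both 28-2EV replicate 2 and 28-2-200f replicate 3, the Krt7 difference was 2.27 (edgeR adjusted p = 0.0257). That pair of libraries was chosen after the data were seen. For Krt8, Krt18 and Krt80 the differences were 0.13, 0.20 and 0.01 (SE 0.182, 0.198 and 0.594).

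Krt20 and Krt23, the other simple type I keratins, were not detectable at a useful level. Krt20 had 1 count in 1 of 12 libraries, ID8EV replicate 2. Krt23 had 0 to 5 counts a library, with sums of 4 in ID8EV, 9 in ID8-200f, 1 in 28-2EV and 2 in 28-2-200f. A count of 0 allows up to 3 counts, or 0.130 to 0.183 CPM depending on the library, and this limit covers counting error only. The 200f cells thus had Krt7 RNA and almost no Krt20 RNA.

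Krt80, a type II keratin of differentiating epithelia, was higher in ID8-200f. Its CPM were 33.9, 35.6 and 27.4 in ID8EV and 80.4, 106.7 and 95.7 in ID8-200f, a log2 fold change of 1.58 (SE 0.126, edgeR adjusted p = 6.92e-07). In 28-2EV it had 27.5, 87.4 and 34.5 CPM and in 28-2-200f 89.3, 133 and 215 CPM. 28-2EV replicate 2 came close to the lowest 28-2-200f value. The log2 fold change in 28-2 was also 1.58 but with a wider error (SE 0.527, edgeR adjusted p = 0.150). Without 28-2EV replicate 2 it was 2.31 (edgeR adjusted p = 0.0177). The other 5 fits with 1 library left out did not pass. Leaving out both 28-2EV replicate 2 and 28-2-200f replicate 3 gave 1.89 (edgeR adjusted p = 0.00991), but that pair was chosen after the data were seen.

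Krt14, the type I keratin of basal layers, had 3.09, 2.13 and 1.04 CPM in ID8EV and 10.1, 10.7 and 8.88 CPM in ID8-200f. All ID8-200f values were higher, with a log2 fold change of 2.31 (SE 0.277, edgeR adjusted p = 2.89e-05). In 28-2EV the CPM were 1.41, 3.22 and 0.915 and in 28-2-200f 10.1, 11.9 and 270.2. Replicates 1 and 2 of 28-2-200f thus lay at the level of ID8-200f, and replicate 3 alone was far higher. The log2 fold change in 28-2 was 5.78 (SE 1.51, edgeR adjusted p = 0.0808), and 2.57 without 28-2-200f replicate 3 (0.0864). None of the 6 fits with 1 library left out passed. Leaving out both 28-2-200f replicate 3 and 28-2EV replicate 2 gave 3.27 (edgeR adjusted p = 0.00515), but that pair was chosen after the data were seen.

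Krt5, the type II partner of Krt14, had 0 counts in 11 libraries and 2 counts in 28-2-200f replicate 3, the library with 4796 counts of Krt14. Krt17 had 1 count in each of 3 libraries (ID8EV replicate 2 and 28-2-200f replicates 2 and 3) and 0 in the other 9. Neither was tested. Hence Krt14 RNA was present in these cells without RNA of its usual basal partner at this depth.

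**Figure D2:**
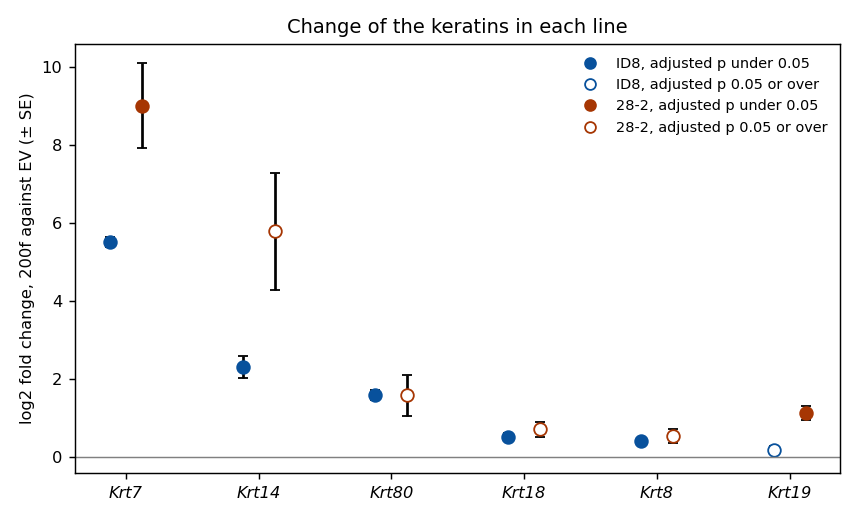
Fitted log2 fold change of 200f against EV for 6 keratins in ID8 (blue) and 28-2 (brown) cells, with bars for 1 SE and filled symbols for an adjusted p under 0.05. All 12 values are above 0, from 0.18 (Krt19 in ID8) to 9.0 (Krt7 in 28-2), and the bars are wider in 28-2 for each gene.

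Between the EV lines, 0 of the 6 keratins tested differed at an adjusted p under 0.05 from edgeR, against 0.887% of 13073 genes higher and 2.52% lower in 28-2EV. At an unadjusted p under 0.05, 2 did, Krt18 and Krt19. DESeq2 called 1 of them, Krt19. Krt19 was lower in all 3 28-2EV libraries than in all 3 ID8EV libraries, with a log2 fold change of -0.57 (SE 0.131, edgeR adjusted p = 0.0707, and 0.0323 without 28-2EV replicate 2). The other 5 fits with 1 library left out did not pass. Krt18 was higher in all 3 28-2EV libraries, with a log2 fold change of 0.48 (SE 0.167, edgeR adjusted p = 0.215). Krt7 had a log2 fold change of -0.99 (SE 0.561, edgeR adjusted p = 0.434).

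Between the 200f lines, 2 of 6 keratins were higher in 28-2-200f than in ID8-200f, against 4.83% of 12713 genes, and 0 were lower, against 4.61%. Krt18 had a log2 fold change of 0.67 (SE 0.117, edgeR adjusted p = 0.0109) and Krt7 of 2.48 (SE 0.640, edgeR adjusted p = 0.0465). The Krt18 call was lost without ID8-200f replicate 1 (edgeR adjusted p = 0.0713) or replicate 3 (0.0814). The Krt7 call was lost without ID8-200f replicate 1, 2 or 3 (0.159, 0.151 and 0.183) or without 28-2-200f replicate 2 (0.0571), and without 28-2-200f replicate 3 its log2 fold change was 1.14. Krt14, Krt19, Krt80 and Krt8 did not pass (log2 fold changes of 3.38, 0.38, 0.68 and 0.27).

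**Figure D3:**
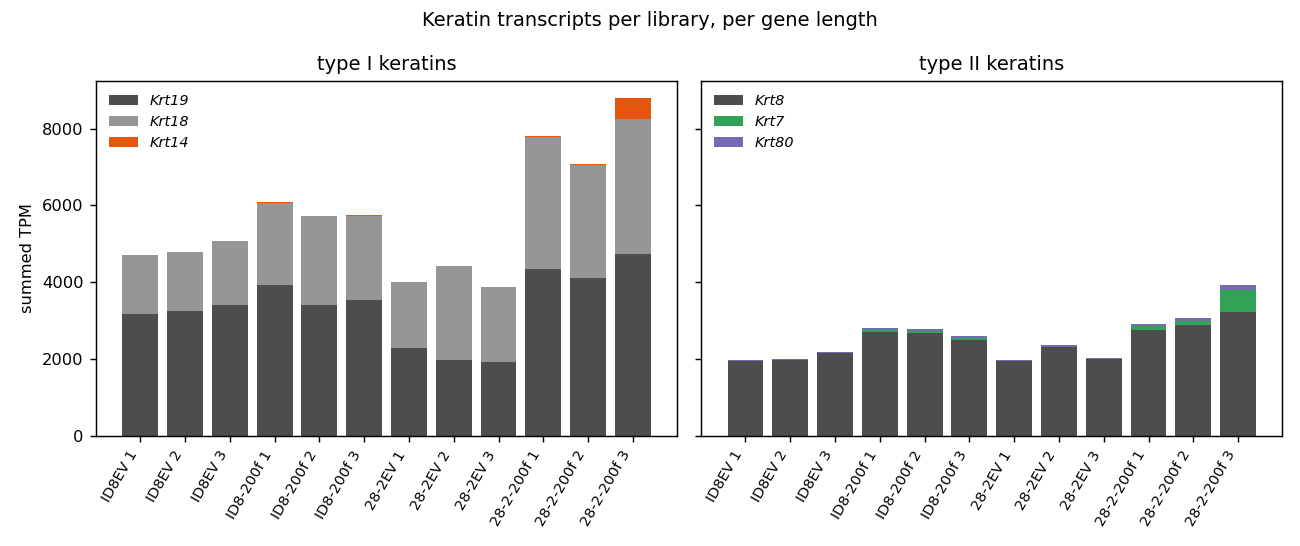
Summed deposited TPM of type I (left) and type II (right) keratins in each of 12 libraries, stacked by gene. Krt19 and Krt18 fill the type I bars and Krt8 the type II bars, and only 28-2-200f replicate 3 has visible parts from both Krt14 (560 TPM) and Krt7 (578 TPM).

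Type I transcripts exceeded type II transcripts in every library. The ratio of summed type I to type II TPM was 2.38 ± 0.0335 in ID8EV, 2.15 ± 0.0754 in ID8-200f, 1.94 ± 0.0933 in 28-2EV and 2.41 ± 0.237 in 28-2-200f (SD, n = 3). The ratio was lower in all ID8-200f than in all ID8EV libraries and higher in all 28-2-200f than in all 28-2EV libraries. These sums are a description without a test, and they rest on the annotated lengths behind the TPM, which for Krt7 and Krt80 were 3.80 and 3.45 times that of Krt19. Set on CPM, the mean ratios were 2.04, 1.70, 1.59 and 1.69. On that scale the ID8 groups were still apart, but the 28-2 groups overlapped, with 1.72, 1.47 and 1.57 in 28-2EV and 2.04, 1.71 and 1.32 in 28-2-200f, where replicate 3 was below all 28-2EV libraries.

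Of the 44 other keratins by symbol, 24 had no count in any library. In ID8 3 passed the filter on low counts and in 28-2 4 did. Krt79, a type II keratin of hair follicle and gland ducts, rose in both lines. It had 0.758, 0.794 and 0.477 CPM in ID8EV and 4.59, 3.89 and 2.51 CPM in ID8-200f (log2 fold change 2.48, SE 0.337, edgeR adjusted p = 8.38e-05). In 28-2EV it had 1.18, 0.611 and 0.488 CPM and in 28-2-200f 3.68, 5.50 and 2.82 CPM (log2 fold change 2.42, SE 0.470, edgeR adjusted p = 0.0332). For Krt79, 28-2-200f replicate 3 was the lowest of its group. In both lines all 3 200f libraries but only 2 EV libraries reached the filter minimum for Krt79. It was thus tested through the group where it was high, and its p-values are no separate support. Krt10, the type I keratin of the upper epidermis, had a log2 fold change of 0.64 in ID8 (SE 0.226, edgeR adjusted p = 0.0396) and of -0.00 in 28-2 (0.999). Krt15, a type I keratin of basal cells, had a log2 fold change of -0.44 in ID8 (SE 0.504, edgeR adjusted p = 0.529).

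Krt6a, a type II keratin of wounded and activated epidermis, had 0 counts in all 6 EV libraries. It had 7, 8 and 4 counts in ID8-200f and 199, 238 and 2191 counts in 28-2-200f, or 11.6, 14.2 and 123 CPM. Against a floor of 3 counts over the EV group, Krt6a was at least 886-fold higher in 28-2-200f, at least 224-fold higher without its replicate 3, and at least 6.35-fold higher in ID8-200f, where it did not reach the filter. Krt87 had 0 counts in all EV libraries, 6, 3 and 8 in ID8-200f and 13, 10 and 64 in 28-2-200f, where it was at least 29.3-fold higher, and at least 11.8-fold without replicate 3. Both genes reached the filter in 28-2 only through the 28-2-200f libraries, so no p-value is given for them. Krt16, a usual type I partner of Krt6a, had at most 7 counts, again in 28-2-200f replicate 3. Krt6a and Krt6b are near-identical copies, and how reads that fit both were counted is not given in the sources used here.

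**Figure D4:**
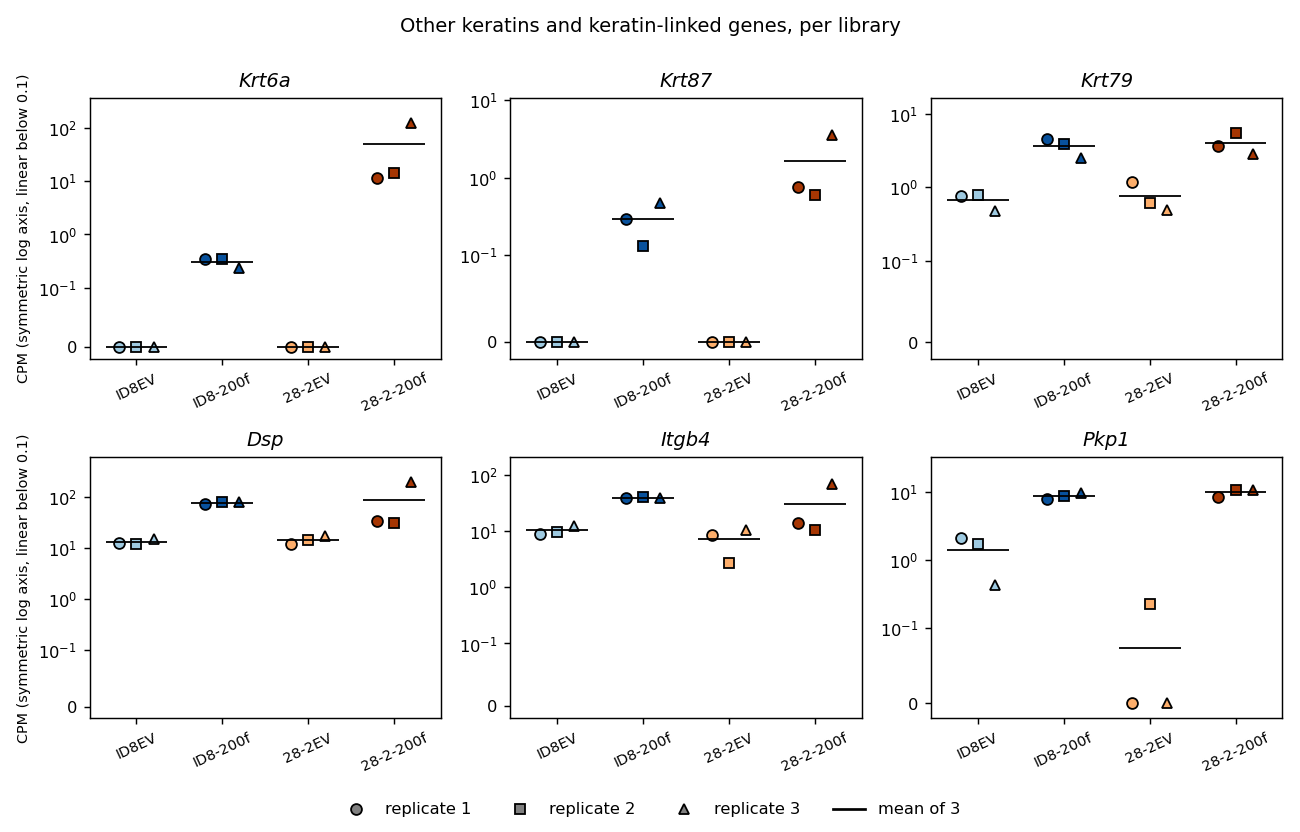
Deposited CPM per library of Krt6a, Krt87 and Krt79 and of the keratin-linked genes Dsp, Itgb4 and Pkp1, on symmetric log axes that are linear below 0.1 CPM. Krt6a, Krt87, Dsp and Itgb4 have their highest value in 28-2-200f replicate 3 (123, 3.61, 198 and 69.3 CPM), and Krt79 and Pkp1 do not.

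More genes of proteins that tie keratin filaments to desmosomes and hemidesmosomes rose than fell in ID8. Of 14 such genes 13 were tested in each line. In ID8 7 were higher (17% of all genes were), 2 lower (19% of all genes) and 4 did not pass, with a median log2 fold change of 0.28 against -0.00 over all genes. In 28-2 2 were higher (2.26% of all genes were), 0 lower (2.18%) and 11 did not pass, with a median of 0.65 against -0.01. Dsp, which links keratin to desmosomes, had 12.7, 11.8 and 15.1 CPM in ID8EV and 71.6, 78.8 and 79.5 CPM in ID8-200f (log2 fold change 2.56, SE 0.115, edgeR adjusted p = 5.07e-09). In 28-2EV Dsp had 11.99, 14.2 and 16.8 CPM and in 28-2-200f 33.5, 30.2 and 198 CPM (2.67, SE 0.759, 0.1). Itgb4, the hemidesmosome integrin, had 8.81 to 12.6 CPM in ID8EV and 38.9 to 40.0 CPM in ID8-200f (1.95, SE 0.134, 2.12e-07). In 28-2-200f it had 13.8, 10.4 and 69.3 CPM, against 8.45, 2.72 and 10.5 CPM in 28-2EV, so these groups overlapped. Pkp1, a desmosomal plakophilin, rose in ID8 (log2 fold change 2.71, edgeR adjusted p = 4.61e-05). It reached the filter minimum in all 3 ID8-200f but only 2 ID8EV libraries. In 28-2, where it is 1 of the 2 genes called, Pkp1 had 147, 183 and 193 counts in 28-2-200f against 0, 4 and 0 in 28-2EV, and it reached the filter only through 28-2-200f. Fam83h, a keratin-associated protein, rose by 0.68 in ID8 and 1.07 in 28-2 (1.19e-04 and 0.0220). In ID8 Pkp2 (-0.66, edgeR adjusted p = 3.11e-04) and the hemidesmosome collagen Col17a1 (-1.82, 7.11e-05) fell. Plec, the linker with the highest CPM, had log2 fold changes of 0.07 and -0.48 (edgeR adjusted p = 0.636 and 0.388).

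Of 15 other intermediate filament genes 8 were tested in each line. In ID8, where 17% of all genes were higher and 19% lower, 2 of the 8 were higher, Nes (log2 fold change 0.56, edgeR adjusted p = 5.93e-04) and the lamin Lmna (0.33, 0.0159), 1 was lower, the peripherin gene Prph (-2.37, 3.98e-06), and 5 did not pass. In 28-2 0 of the 8 passed edgeR's test, and at an unadjusted p under 0.05 2 were lower, Vim and Prph. Prph reached the filter minimum in all 3 28-2EV but only 1 28-2-200f library. Vim, the vimentin gene and the filament gene with the highest CPM, had 2516, 2573 and 2413 CPM in ID8EV, 2104, 2606 and 2167 in ID8-200f, 2284, 3320 and 2449 in 28-2EV and 1193, 1219 and 1986 in 28-2-200f. Its log2 fold change was -0.10 in ID8 (SE 0.104, edgeR adjusted p = 0.507) and -0.83 in 28-2 (SE 0.297, 0.176). The 28-2-200f values of Vim lay below all 28-2EV values, whereas in ID8 the groups overlapped.

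Cornified envelope genes, which stratified epithelia switch on as they differentiate, were mostly at or near 0 counts. Of 12 such genes 4 were tested in each line, with 2 higher in ID8 and 1 in 28-2 (17% and 2.26% of all genes were). In ID8 Sprr1a (log2 fold change 1.87, edgeR adjusted p = 2.54e-06) and Lor (0.96, 9.57e-04) rose, and in 28-2 Lor alone rose (2.10, 0.0425). Sprr1a had 5.63, 144 and 13.2 CPM in 28-2EV, so that 28-2EV replicate 2 was above all 28-2-200f libraries (26.2, 40.3 and 110.3 CPM).

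Of 19 transcription factors of epithelial cells 6 were tested in ID8, with 3 higher (17% of all genes were) and 0 lower (19%), and 8 in 28-2, with 3 higher (2.26% of all genes were) and 0 lower (2.18%). In ID8 Klf5 (log2 fold change 1.07, edgeR adjusted p = 2.59e-05), Gata3 (0.62, 0.00365) and Grhl1 (0.82, 0.0375) rose. Gata3 had the other sign in 28-2, with 16.9, 20.3 and 10.2 CPM in 28-2EV and 4.61, 5.80 and 7.61 CPM in 28-2-200f (-1.36, edgeR adjusted p = 0.0755), and its change differed between the lines (interaction -1.98, 0.0148). In 28-2 Grhl1 rose (3.04, edgeR adjusted p = 0.00371). The other two genes called there, Ehf and Elf3, reached the filter only through 28-2-200f and were not tested in ID8. Ehf had 4.90, 4.19 and 2.48 CPM in 28-2-200f and 0 counts in 28-2EV, and Elf3 had 3.85, 4.79 and 17.1 CPM against at most 0.244 CPM. Foxa2 and Klf4, the factors with the highest CPM, did not pass in either line. Trp63, a transcription factor of basal epithelial cells, had at most 1.41 CPM in any library and at most 0.574 CPM in a 200f library.

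Markers of cell types were checked beside the keratins. Both labelled lines carried mesothelial and ovarian surface markers, with a sum per library of 3171 to 4056 CPM (ID8EV), 1654 to 1925 CPM (ID8-200f), 1493 to 2255 CPM (28-2EV) and 1468 to 2151 CPM (28-2-200f). Of these 6 markers, 5 were lower in ID8-200f (19% of all genes were), among them Bnc1 (log2 fold change -1.69), Upk3b (-2.15) and Lrrn4 (-2.57), and Msln was higher (0.71, edgeR adjusted p = 1.15e-05). Bnc1 had the other sign in 28-2 (1.10, edgeR adjusted p = 0.0780), and its change differed between the lines (interaction 2.79, 7.42e-04). In 28-2-200f 1, Lrrn4, was lower (2.18% of all genes were, log2 fold change -2.55, edgeR adjusted p = 0.0181). Lrrn4 reached the filter minimum in all 3 28-2EV but only 2 28-2-200f libraries, so it was tested through the group where it was high. The 7 epithelial markers summed to 76.8 to 83.5 CPM (ID8EV), 98.4 to 102.8 CPM (ID8-200f), 38.3 to 41.3 CPM (28-2EV) and 94.9 to 102.7 CPM (28-2-200f), with Cldn4, Cldn7 and Esrp1 at or near 0 throughout. Of the 4 tested in each line, Esrp2 rose in both (log2 fold change 0.38 and 0.87). Epcam rose in ID8, from 1.52 to 1.99 CPM up to 6.49 to 8.89 CPM. In 28-2 Epcam had 0 counts in 28-2EV and 11.4 to 24.3 CPM in 28-2-200f, through which alone it reached the filter. Cdh1 rose in ID8 (0.36). In 28-2 it had 15, 3 and 7 counts in 28-2EV and 53, 76 and 26 in 28-2-200f (2.68, edgeR adjusted p = 0.0657), and the difference between the lines was called (2.32, 0.0426). In the 28-2 fit Cdh1 reached the filter minimum in all 3 28-2-200f but only 1 28-2EV library. It was thus tested there through the group where it was high, and the called difference uses the same low 28-2EV counts. Cldn3 fell in ID8 (-0.60) and rose in 28-2 (1.94). The 6 fibroblast markers summed to 480 to 532 CPM (ID8EV), 115 to 171 CPM (ID8-200f), 81.6 to 487 CPM (28-2EV) and 212 to 400 CPM (28-2-200f), and 5 of 5 tested were lower in ID8-200f (19% of all genes were), among them Col1a1 (log2 fold change -3.62), Acta2 (-3.81) and Pdgfra (-2.30), and 2 of 4 in 28-2-200f (2.18% of all genes), Col1a1 (-1.63) and Pdgfra (-2.59). Acta2 reached the filter minimum in all 3 ID8EV but only 1 ID8-200f library, so it too was tested through the group where it was high. The part of these marker shifts in the keratin results was not tested. Immune markers summed to at most 4.03 CPM, nearly all of it from Cd68. Cd3e had 0 counts, and Ptprc and Lyz2 had up to 3 counts a library. Endothelial markers summed to at most 3.36 CPM, with Cdh5 at 0 counts, and most of that sum came from Pecam1. Pecam1 was lower in ID8-200f (log2 fold change -1.59), where only 2 libraries reached the filter minimum, against all 3 of ID8EV.

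The 28-2 libraries spread more than the ID8 libraries. The SD of log2 deviations from the group mean was 0.202 to 0.266 in ID8 libraries and 0.302 to 0.566 in 28-2 libraries, highest in 28-2EV replicate 2. 28-2-200f replicate 3, which stood apart in Krt7, Krt14, Krt6a, Krt87, Dsp and Itgb4, had an SD of 0.410, near that of replicate 1 (0.404).

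The genes most like a keratin were ranked by Pearson correlation of log2 CPM over the 12 libraries, among 10438 genes with a mean of at least 5 CPM in some group. The 12 points share their groups, so a high value mostly reflects the same steps between 4 groups, and the correlations are descriptions. Krt7 was most like Egfr (r = 0.986), the EGF receptor gene, S100a7a (0.981) and Sorbs2 (0.975). Egfr moved over a far smaller range than Krt7, with 129 to 139 CPM (ID8EV), 167 to 180 CPM (ID8-200f), 113 to 123 CPM (28-2EV) and 183 to 201 CPM (28-2-200f). Krt8 was most like Rnf39 (0.976), P4ha2 (0.972) and Vps37b (0.968), and Krt18 like Zfp24 (0.973), Cdipt (0.967) and Lmo7 (0.963). Krt19 was most like Eya2 (0.985), Tspan7 (0.972) and Epcam (0.969). Tspan7 had 8.98 to 11.7 CPM (ID8EV), 8.97 to 11.1 CPM (ID8-200f), 0.610 to 0.788 CPM (28-2EV) and 46.8 to 70.7 CPM (28-2-200f), so that, as for Krt19, the 28-2EV libraries were lowest, the 28-2-200f libraries highest and the ID8 groups between them. Among the 6 keratins themselves the correlation was 0.947 between Krt8 and Krt80, 0.927 between Krt8 and Krt18, and 0.560 between Krt18 and Krt19.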

How the data were processed

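RNA of 12 libraries, 3 in each of 4 groups named in the labels, was measured. In Genialis version 3.0 the authors ran BBDuk for trimming, STAR for alignment and featureCounts for counting. The genome build was GRCm39 per the submitters' processing notes. The annotation release, strand setting and version of STAR are not given in the sources used here. The deposited values were whole-number counts per gene, TPM and CPM for 57010 genes a library. The deposited CPM equal the count over the library total (largest difference 6.73e-11 CPM). The authors' TPM are per gene length. Total counts were 16390953 to 23063875 per library, and floors cover counting error only.

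Counts were fitted with edgeR 4.0.16 in R 4.3.3 by its quasi-likelihood test, after TMM scaling and filterByExpr at its minima of 10 counts and of 15 counts in total, each comparison on its own groups, with Benjamini-Hochberg adjustment over all genes tested, and the difference between the lines as an interaction over all libraries. The SE given is the absolute log2 fold change over the square root of the F statistic of that test. Steps were tested on simulated data. Alternatives were RLE and library size scaling, no filter or 1 CPM in 3 libraries, DESeq2 1.42.0, limma 3.58.1 on log2(TPM + 1) and log2(TPM + 0.1), all groups in a single fit, a replicate block, and leaving out libraries. Members and lists were chosen with earlier results of these data known. All 10 keratins are named, and of each other list up to 3 genes per direction and line with the smallest adjusted p among those called and the gene with the highest mean CPM. Some values outside this rule are given because they were seen to stand apart: Krt16, Trp63, Itgb4 and Sprr1a in 28-2, and Egfr and Tspan7 by library. Gene models and pseudogenes were skipped, and 1 gene chosen for the list of transcription factors is not reported here. Sequences come from RefSeq (GRCm38.p6) and GENCODE mouse release M21, which is on an older build than the counts, and no coordinates were carried between builds. The 3′UTRs are counted after the stop codon.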

Additional observations from a re-analysis of the deposited data

Results flagged for a closer look

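The change of Krt19 with the miR-200 vectors differed between the lines by the interaction test, by 0.96 on the log2 scale (28-2 minus ID8, SE 0.168, edgeR adjusted p = 0.00869 over 13620 genes). The log2 fold change was 0.18 in ID8 and 1.13 in 28-2, and Krt19 was higher in all 3 28-2-200f libraries than in all 3 28-2EV libraries. The difference was 0.83 to 1.02 under the alternatives that were run, with adjusted p-values of 7.74e-08 to 0.0396.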

How the results depend on the processing

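In ID8 5 keratins were called, and 3 at the cut-off of the study (FDR under 0.01, absolute log2 fold change over 1) and 3 with all 4 groups in a single fit, where Krt8 (adjusted p = 0.0675) and Krt14 (0.227) were lost. Leaving out each library gave 5 each time. In 28-2 2 were called, against 1 at that cut-off, 4 without a filter on low counts, 5 with DESeq2 (which gave Krt14 no adjusted p), 6 with all 4 groups, and 1 to 4 with each library left out. Without both 28-2EV replicate 2 and 28-2-200f replicate 3, chosen after the data were seen, 4 were called. For the difference between the lines 1 was called, against 0 at the cut-off of the study, 3 without a filter, 2 with DESeq2, 2 without both of those libraries and 1 to 2 with each library left out. Between the EV lines 0 were called, 1 with DESeq2, 1 with all 4 groups and 0 to 1 with each library left out. Between the 200f lines 2 were called, 0 at the cut-off of the study, 1 with library size alone, 4 without a filter, 3 with DESeq2, 1 with the filter at 1 CPM, 1 and 1 with limma at both pseudocounts and 0 to 5 with each library left out. The cause was not tested, except that all-group fits share a spread between the lines. With RLE scaling no call changed. The type I to type II ratios in TPM of 2.38, 2.15, 1.94 and 2.41 became 2.04, 1.70, 1.59 and 1.69 in CPM.

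Replicate numbers are not stated to pair the samples. Correlations of deviations between the same numbers were -0.10, 0.05 and -0.03 in ID8 and 0.21, 0.11 and -0.30 in 28-2. They were -0.12, 0.07 and 0.36 between the EV lines and 0.24, 0.16 and -0.07 between the 200f lines. With 3 libraries a group these values cannot exclude pairing. With the replicate block 1 keratin was called in 28-2 (Krt19 lost) and 1 between the 200f lines (Krt7 lost), and no other count changed. Directions turned only for values far from the threshold. The Krt80 difference between the lines was 0.01, -0.00368 with the filter at 1 CPM, and -0.43 to 0.72 with a library left out. The difference between the EV lines was -0.79 to 0.28 for Krt14 and -0.0272 to 1.00 for Krt80 with a library left out.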
